A study of Mus musculus with 6 samples.

Results

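Transcription factors that lay down the gonad and the Müllerian duct were followed in mouse ovarian tumours. The set holds 10 genes, Gata4, Gata6, Sox9, Foxl2, Lhx9, Emx2, Tcf21, Osr1, Pax8 and Pax2, out of 30142 genes tested. It was chosen by name, with earlier results of these data known. Each of the 10 had 1 probe set that the platform annotation ties to that symbol alone. The tumours grew from ID8-VEGF cells, which are ID8 cells, a line derived from mouse ovarian surface epithelium, engineered to secrete vascular endothelial growth factor. They were injected below the bursa, the membrane around the ovary. Late-stage tumours were taken from 3 mice, C1M3, C1M5 and C2M3, with 1 primary and 1 metastatic tumour from each, which makes 3 arrays per group. All the tumours carry the same cell line, and there was no normal ovary and no cultured line among the arrays. Strain, age, surgery and the site of each metastasis are not stated in the labels. Values are log2 intensities, and the number of arrays limits their precision. In whole tumours, fewer cells of a type and less RNA per cell cannot be told apart.

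The gonad forms as a thickening of the coelomic epithelium, the sheet that also gives rise to the ovarian surface. GATA4, LHX9 and EMX2 are needed for that first step, SOX9 then directs the testis and FOXL2 maintains the ovary. TCF21 and OSR1 act in the mesoderm beneath the epithelium. PAX2 and PAX8 act in the nephric and Müllerian ducts, and PAX8 is a widely used marker of cancers that resemble the epithelium of the oviduct.

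The members fell into 3 that were well detected and 7 that were not, or only on some arrays. As a level that silent genes reach, the 95th percentile of 1717 olfactory and vomeronasal receptor genes was taken on each array. It was 5.85 in the primary and 5.03 in the metastatic tumour of C1M3, 4.87 and 5.74 in those of C1M5 and 4.78 and 6.11 in those of C2M3, so it differed between arrays. Gata4, Gata6 and Sox9 lay above it on all 6 arrays, as did 32.7% of all genes. Emx2 lay above it on 3 arrays and Tcf21 on 2. Foxl2, Lhx9, Osr1, Pax8 and Pax2 lay above it on none.

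RefSeq promoter entries matched 6 of the 10 members. Windows of 250 bases directly before the start site, build GRCm38.p6, are shown for the members with partial detection, Emx2 at chr19:59458440-59458689 (plus strand) and Tcf21 at chr10:22820144-22820393 (minus strand). Pax8 at chr2:24475600-24475849 (minus strand) and Lhx9 at chr1:138842445-138842694 (minus strand) are shown because, like Tcf21, they hold the core letters read by GATA factors, whose genes Gata4 and Gata6 were detected on every array. All are written 5′ to 3′ on the strand of the gene. Capitals mark GATAA or, for the opposite strand, TTATC.
Emx2: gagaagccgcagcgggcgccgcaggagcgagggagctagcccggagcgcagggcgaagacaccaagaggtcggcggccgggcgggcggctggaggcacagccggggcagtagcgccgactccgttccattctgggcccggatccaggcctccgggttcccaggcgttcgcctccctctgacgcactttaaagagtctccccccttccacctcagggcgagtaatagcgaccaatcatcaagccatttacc
Tcf21: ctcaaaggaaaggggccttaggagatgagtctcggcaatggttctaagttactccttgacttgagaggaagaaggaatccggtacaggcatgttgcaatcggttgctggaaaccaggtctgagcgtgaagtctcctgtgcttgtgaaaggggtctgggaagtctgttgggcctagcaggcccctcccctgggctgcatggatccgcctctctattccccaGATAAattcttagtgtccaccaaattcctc
Pax8: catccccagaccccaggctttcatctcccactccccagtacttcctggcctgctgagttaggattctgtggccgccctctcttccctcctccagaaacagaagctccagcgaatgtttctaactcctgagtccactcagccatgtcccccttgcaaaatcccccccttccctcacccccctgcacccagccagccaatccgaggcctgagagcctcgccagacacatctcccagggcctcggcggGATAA
Lhx9: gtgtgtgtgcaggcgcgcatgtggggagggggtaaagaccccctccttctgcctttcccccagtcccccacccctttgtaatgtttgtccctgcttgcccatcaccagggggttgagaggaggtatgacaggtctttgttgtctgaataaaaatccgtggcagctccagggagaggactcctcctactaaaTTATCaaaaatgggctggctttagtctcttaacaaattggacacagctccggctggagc
Of 32851 windows of this length in the table, 22.6% held GATAA on either strand. The members had 8 windows, 3 of them for Pax2, and 3 of the 8 held it, 1 each in Tcf21, Pax8 and Lhx9. In Tcf21 the letters began 30 bases before the start site, in Pax8 they began 5 bases before it and in Lhx9 they began 59 bases before it. In Lhx9 they lay on the opposite strand. A match of these letters is a description of the window and shows no binding.

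**Figure D1:**
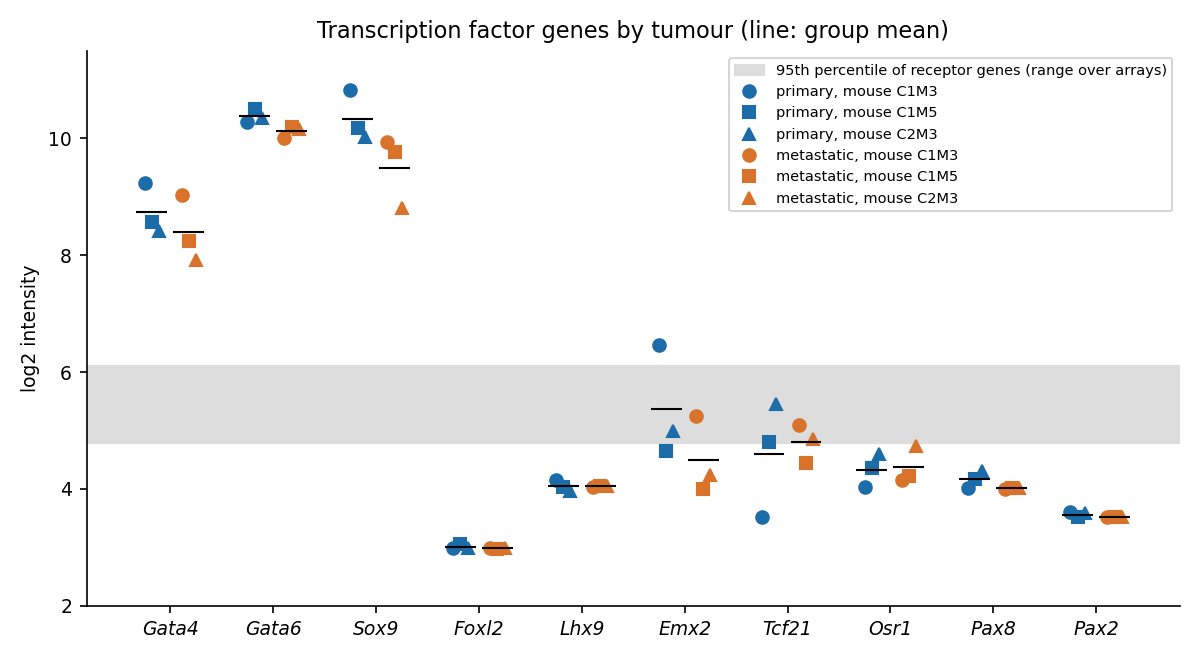
Log2 intensity of each of the 10 transcription factor genes in the 3 primary (blue) and 3 metastatic (orange) tumours, with the mouse as the symbol and the group mean as a line. The grey band spans the 95th percentile of receptor genes over the arrays, from 4.78 to 6.11; only Gata4, Gata6 and Sox9 lay above it on all 6 arrays.

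Sox9 had the widest difference between the groups among the members detected on every array. The gene encodes the factor that starts Sertoli cell development in the testis and also acts in cartilage and in many duct epithelia. Its log2 intensity was 10.83 primary against 9.94 metastatic in C1M3, 10.17 against 9.77 in C1M5 and 10.03 against 8.80 in C2M3. All 3 primary tumours lay above all 3 metastatic ones, with a gap of 0.089 between the nearest tumours. The primary mean was 10.34 ± 0.43 (SD, n = 3) and the metastatic mean 9.50 ± 0.62. The difference of -0.84 (SE 0.39), a 1.79-fold lower metastatic mean, did not pass in limma with adjustment over all genes (adjusted p = 0.842). Within C1M3, C1M5 and C2M3 it was -0.90, -0.40 and -1.23. Without the metastatic tumour of C2M3, the lowest of all, the difference was -0.49.

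Gata6 had the narrowest range of the 3 detected members. GATA6 and its relative GATA4 are zinc finger factors of heart, gut and gonad, and in the ovary both serve granulosa and theca cells. The log2 intensity of Gata6 was 10.28 primary against 9.998 metastatic in C1M3, 10.51 against 10.20 in C1M5 and 10.35 against 10.16 in C2M3. The groups did not overlap, with a gap of 0.074, yet all 6 values lay within 0.51 of each other. The primary tumours averaged 10.38 ± 0.12 (SD, n = 3) and the metastatic ones 10.12 ± 0.11. The difference of -0.26 (SE 0.09), or 1.20-fold lower, had an unadjusted p = 0.0332 and an adjusted p = 0.842 in limma.

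Gata4 was highest in the tumours of C1M3. Its log2 intensity was 9.23 primary against 9.03 metastatic in C1M3, 8.57 against 8.24 in C1M5 and 8.42 against 7.92 in C2M3. The C1M3 pair lay above the 4 other tumours, and the groups overlapped. The means of 8.74 ± 0.43 (SD, n = 3) and 8.40 ± 0.57 differed by -0.34 (SE 0.37, limma adjusted p = 0.844). Within the mice, in the same order, the difference was -0.20, -0.33 and -0.50. Leaving out the primary tumour of C1M3 gave -0.10, and leaving out its metastatic tumour gave -0.66.

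Emx2 spread more widely over the arrays than the other members. EMX2 is a homeobox factor of the early urogenital ridge, where the gonad and the ducts form. The gene stood at a log2 intensity of 6.47 primary against 5.24 metastatic in C1M3, 4.65 against 3.99 in C1M5 and 4.99 against 4.23 in C2M3. Both tumours of C1M3 were the highest, and both lay above the receptor gene level of their array, as did the primary tumour of C2M3. The group means were 5.37 ± 0.97 (SD, n = 3) and 4.49 ± 0.66, a difference of -0.88 (SE 0.61, limma adjusted p = 0.842), and the groups overlapped. Within the mice the metastatic tumour was lower by 1.23 in C1M3, by 0.66 in C1M5 and by 0.76 in C2M3. The difference was -0.33 without the primary tumour of C1M3.

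The transcript from the opposite strand, Emx2os, had its highest and lowest values in the same tumours as Emx2. Its probe set, which was looked up after the values of Emx2 were seen, gave a log2 intensity of 7.52 primary against 7.20 metastatic in C1M3, 5.31 against 4.90 in C1M5 and 6.15 against 5.48 in C2M3. It was lower in the metastatic tumour by 0.32, 0.41 and 0.67 in C1M3, C1M5 and C2M3 (mean difference -0.47, SE 0.85, limma adjusted p = 0.899). That SE leaves the pairing by mouse aside, and with the mouse as a block it was 0.10 (limma adjusted p = 0.841). Emx2os lay above the receptor gene level on 4 arrays, the 3 primary tumours and the metastatic tumour of C1M3. This count follows the level of each array. The value of 5.31 in the primary tumour of C1M5 lay above a level of 4.87. The higher value of 5.48 in the metastatic tumour of C2M3 lay below a level of 6.11. The opposite strand partner of Gata6, Gata6os, lay between 6.59 and 6.85, and that of Foxl2, Foxl2os, at 3.97 on every array.

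Tcf21 differed in sign between mice. TCF21 is a basic helix-loop-helix factor of mesenchyme and of stromal cells in the gonad and kidney. The log2 intensity was 3.51 primary against 5.10 metastatic in C1M3, 4.80 against 4.44 in C1M5 and 5.45 against 4.85 in C2M3. The primary tumour of C1M3 was the lowest and the primary tumour of C2M3 the highest. The metastatic tumour was higher by 1.59 in C1M3, and the difference was -0.36 in C1M5 and -0.60 in C2M3. The mean difference of 0.21 (SE 0.54, limma adjusted p = 0.933) was -0.33 without the primary tumour of C1M3. Fibroblast marker genes, 10 measured of 11 listed, also had their lowest mean in the primary tumour of C1M3 and their highest in the primary tumour of C2M3. That mean ran from 6.34 to 9.41 in primary and from 7.55 to 8.46 in metastatic tumours. Of the 10 measured, 4 lay above the receptor gene level on every array, among them the collagen genes Col1a1 and Col3a1. Over all genes that share was 32.7%. Among metastatic tumours, that of C1M3 had the lowest fibroblast mean, 7.55, and the highest Tcf21, 5.10. The macrophage, smooth muscle, endothelium and T cell lists had their lowest and highest means in the same tumours as the fibroblast list. The part of these cells in the values of Tcf21 was not tested.

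Osr1, a zinc finger factor of intermediate mesoderm, lay between 4.03 and 4.73 and its 3 primary values (4.03, 4.35 and 4.59) and 3 metastatic values (4.15, 4.22 and 4.73) overlapped. Lhx9, a LIM homeobox factor of the early gonad, lay between 3.96 and 4.15. Foxl2, the forkhead factor of granulosa cells, lay between 2.97 and 3.06 and ranked within the lowest 0.2% of genes on every array. All values of these 3 genes lay below the receptor gene level of their array.

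The duct factors were as dim. Pax8 stood at a log2 intensity of 4.01 primary against 3.99 metastatic in C1M3, 4.16 against 4.01 in C1M5 and 4.30 against 4.01 in C2M3. The groups did not overlap, but the gap was 0.0003 and every value lay below the receptor gene level of its array, and the difference of -0.15 (SE 0.08, limma adjusted p = 0.842) was within signal that silent genes also give. Pax2 had 3 distinct values over the 6 arrays, 3.51 in 4 tumours and 3.59 and 3.60 in the other two.

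Across the set no gene passed. In limma no member of 10 and 0 of 30142 genes (0%) fell under an adjusted p of 0.05. Gata6 was the only member under an unadjusted p of 0.05, where 1.33% of all genes were lower and under it. With the mouse as a block the unadjusted p was under 0.05 for 4 of the 10 members, and 1.97% of all genes were lower and under it. These 4 were Emx2 (unadjusted p = 0.00933, SE 0.15), Gata6 (0.0176, SE 0.06), Sox9 (0.0241, SE 0.20) and Gata4 (0.0275, SE 0.09), each with an adjusted p = 0.841 in the blocked limma fit. The mean was lower in metastatic tumours for 8 of the 10 members, against 43.9% of all genes, with a median difference of -0.10 against 0.02 over all genes. With each array centred on its median these were 9 of 10 members and 69.6% of all genes, with medians of -0.21 and -0.09. Quantile normalization gave 8 of 10 and 56.4%, with medians of -0.12 and -0.02. Gata4, Gata6, Sox9, Emx2 and Pax8 were lower in the metastatic tumour of all 3 mice and no member was higher in all 3, where 8.64% of all genes were lower and 11.1% higher in all 3. With centring or quantile normalization Gata4, Gata6, Sox9 and Emx2 were still lower in all 3 mice and Pax8 was not, where 19.6% and 14.7% of all genes were lower. The groups did not overlap for Gata6, Sox9 and Pax8, all lower in metastatic tumours, as for 2.84% of all genes, and for 0 members with metastatic tumours higher, as for 4.79% of all genes. With centring or quantile normalization they did not overlap for Gata6 and Sox9, as for 10.3% and 6.14% of all genes. Among the 9864 genes above the receptor gene level on every array, 3.66% were lower in metastatic tumours without overlap and 12.2% were lower in all 3 mice. For a single gene, 3 tumours against 3 without overlap give an exact permutation p of 0.1 when labels are shuffled freely over the 6 tumours. That is the smallest such a shuffle allows, and it leaves the pairing by mouse aside. Swapping labels only within mice has fewer arrangements, so its smallest p is larger.

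**Figure D2:**
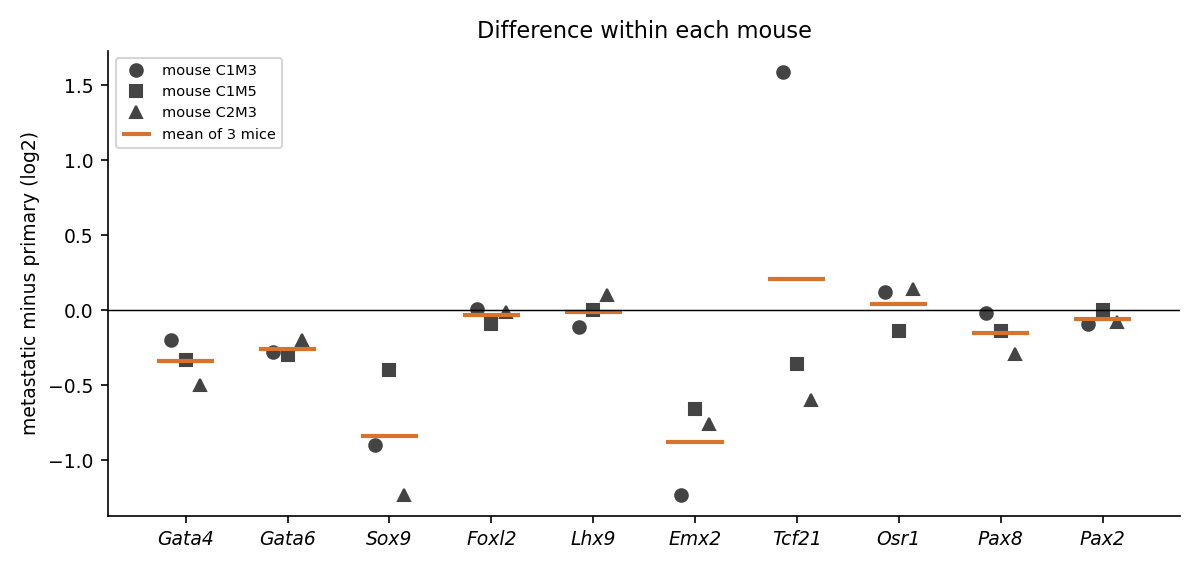
Metastatic minus primary log2 intensity of each gene within mice C1M3, C1M5 and C2M3 (symbols) and the mean of the 3 mice (orange line). Gata4, Gata6, Sox9, Emx2 and Pax8 lay below 0 in all 3 mice, and Tcf21 ran from -0.60 in C2M3 to 1.59 in C1M3.

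The arrays also differed in cell makeup markers, and their extremes fell in some of the same tumours as those of the members. The primary tumour of C1M3, with the highest Sox9, Gata4 and Emx2, had the highest mean over 11 proliferation genes, 9.43 against 7.88 and 7.59 in the other primary tumours and 6.91 to 8.14 in metastatic tumours. The metastatic tumour of C2M3 had the lowest Sox9, the lowest Gata4 and the lowest proliferation mean, 6.91, while Emx2 was lowest in the metastatic tumour of C1M5. Within C1M5 the proliferation mean was 7.88 primary against 8.0 metastatic, where Sox9, Gata4 and Emx2 were lower in the metastatic tumour. The primary tumour of C1M3 also had the lowest mean over 12 macrophage genes, 6.35 against 8.29 and 8.75 in the other primary tumours and 7.92 to 8.73 in metastatic tumours. Adipocyte genes, 11 measured of 13 listed, ran from 5.80 to 11.35 in primary and from 5.60 to 6.02 in metastatic tumours, and the lowest primary value was that of C1M3. The part of these cells in the member values was not tested.

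**Figure D3:**
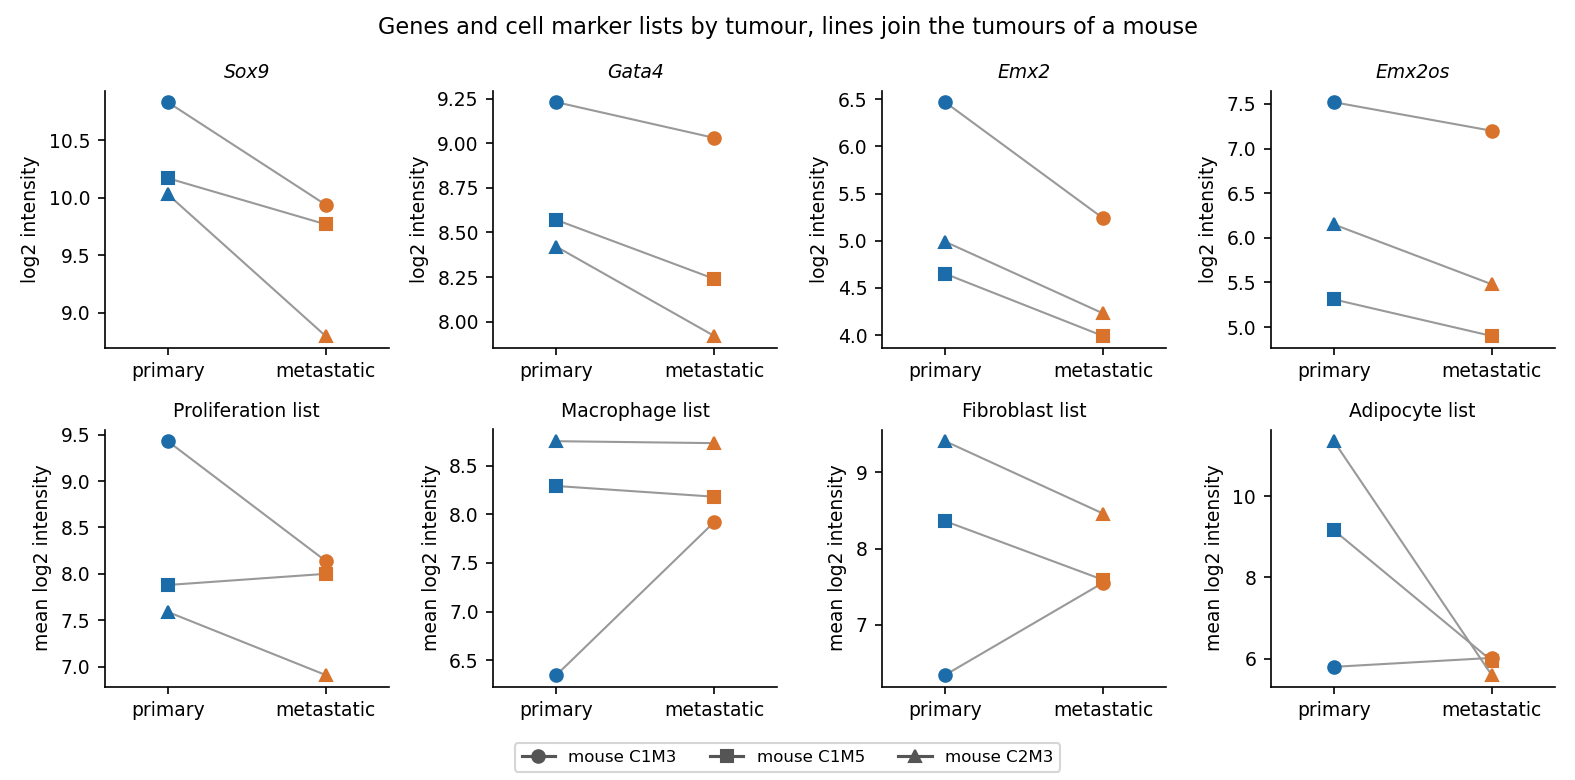
Log2 intensity of Sox9, Gata4, Emx2 and Emx2os (top) and mean log2 intensity of 4 marker lists (bottom) in primary and metastatic tumours, with lines joining the tumours of a mouse. The primary tumour of C1M3 (circle) was highest for Sox9, Gata4, Emx2, Emx2os and the proliferation list (9.43) and lowest for the macrophage (6.35) and fibroblast (6.34) lists.

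Genes of several cell types were detected beside the members. Of 16 genes of mesothelium and ovarian surface, 14 lay above the receptor gene level on all 6 arrays, among them Wt1, the early gonad and mesothelial factor, at 10.11 to 11.07. Over all genes, 32.7% lay above it on all 6 arrays. Of 14 measured granulosa, theca and luteal genes 5 did, among them Inha at 10.24 to 16.32 and Amhr2 at 17.34 to 17.79. Fshr, Nr5a2 and Serpina5 of that list lay above it on no array. Of 12 endothelial genes 7 lay above it on all 6 arrays, as did 8 of 11 measured proliferation genes. None of 10 oocyte genes did. Of 11 measured genes of oviduct and uterus epithelium only Cd24a did, and of 11 measured kidney and nephric duct genes only Aqp2. Epcam, which encodes an epithelial adhesion protein, lay between 4.77 and 5.43 and was above the level on 2 arrays, while Pax8 was above it on none.

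Genes that work with the members were read from lists chosen with earlier results of these data known. None passed the test in either direction. Of 5 measured GATA factors and cofactors, 3 were higher and 2 lower by their metastatic mean, and the median difference of 0.03 was -0.08 with centring and -0.07 with quantile normalization. Zfpm2, the FOG2 cofactor that binds GATA4 in the gonad and heart, lay between 9.73 and 10.15 in all tumours and differed by 0.06 (SE 0.12), or by -0.06 without the metastatic tumour of C1M3. Its relative Zfpm1 lay between 6.19 and 6.77, and Gata5, the closest relative of Gata4 and Gata6 here, between 5.25 and 5.58. Gata1 differed by -0.09 (SE 0.05) below the receptor gene level.

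Of 10 measured early gonad factors 8 had their lower mean in metastatic tumours, and the median difference was -0.09. With centring 9 were lower (median -0.20) and with quantile normalization 8 (median -0.17). The widest difference was in Cited2, a transcriptional coactivator that works with WT1 in the early gonad and is also induced by low oxygen. The log2 intensity of Cited2 was 10.85 primary against 9.75 metastatic in C1M3, 10.49 against 9.49 in C1M5 and 10.48 against 9.0 in C2M3. The groups did not overlap, and the difference of -1.19 (SE 0.23) had a limma adjusted p = 0.842. Nr5a1, which encodes steroidogenic factor 1, differed by -0.44 (SE 0.27), with the metastatic tumour lower in each mouse. Its SE was 0.07 with the mouse as a block (limma adjusted p = 0.841). Nr2f2, a nuclear receptor of gonadal stroma, differed by -0.50 (SE 0.30).

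Of the ovary and testis fate genes, 9 of 18 had a higher mean and 9 a lower one, with a median of -0.01, while 13 were lower with centring (median -0.12) and 12 with quantile normalization (median -0.07). Amh, a target of SOX9 in the testis that encodes anti-Müllerian hormone, differed by -0.65 (SE 0.30) and lay above the receptor gene level only in the primary tumour of C2M3, at 5.15. Sox8, a close relative of Sox9, had 6.64 primary against 7.45 metastatic in C1M3, 8.33 against 8.40 in C1M5 and 7.25 against 7.45 in C2M3, a difference of 0.36 (SE 0.53, limma adjusted p = 0.874). The difference of Sox8 was -0.02 without the primary tumour of C1M3. Dhh, which encodes a Sertoli cell ligand, differed by -0.51 (SE 0.63), with 0.57 in C1M3, -1.24 in C1M5 and -0.84 in C2M3, and by 0.00 without the metastatic tumour of C1M5. Rspo1, an activator of ovarian WNT signalling, differed by 0.40 (SE 0.43), with the metastatic tumour of C2M3 highest at 11.82, and by -0.08 without it. Of the 13 genes of the SOX9 list for cartilage and ducts, 11 had a higher mean, with a median of 0.04, but 2 had a higher mean with centring (median -0.06) and 4 with quantile normalization (median -0.01). Only Sox6 and Krt19 of that list were above the receptor gene level on every array, and Krt19, a duct keratin, differed by 0.34 (SE 1.11), by -0.56 without the metastatic tumour of C1M5 and by -0.21 without the primary tumour of C2M3. Acan and Matn1, which encode cartilage matrix proteins, lay at or below 4.54.

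Müllerian duct genes had a lower mean for 11 of 15 measured genes, against 43.9% of all genes, with a median of -0.04. With centring 15 were lower (median -0.14) and with quantile normalization 12 (median -0.08). Of the 15, 7 were above the receptor gene level on no array and 3 on every array. The 3 on every array were Wnt4, Wnt5a and Amhr2, the anti-Müllerian hormone receptor gene, which lay between 17.34 and 17.79. Wnt4, needed for the duct and the ovary, differed by -0.33 (SE 0.36), Amhr2 by -0.22 (SE 0.10) and Rara, a retinoic acid receptor gene, by -0.19 (SE 0.13). The duct factor gene Lhx1 lay between 4.39 and 4.47, below the receptor gene level of each array. Among 24 measured paralogues of the members, 12 had a higher and 11 a lower mean, with a median of 0.00 (-0.11 with centring, -0.02 with quantile normalization), and 3 were detected on every array, Osr2, Sox8 and Pax3. Osr2, the paralogue of Osr1, had 8.41 primary against 7.12 metastatic in C1M3, 7.37 against 6.54 in C1M5 and 7.04 against 6.67 in C2M3, a difference of -0.83 (SE 0.40, limma adjusted p = 0.842). It was lower in the metastatic tumour of each mouse, and with the mouse as a block the SE was 0.22 (limma adjusted p = 0.841). Tcf23, a relative of Tcf21, differed by -0.30 (SE 0.21). Leaving out the C1M3 primary array gave -0.43 for Osr2, -0.08 for Tcf23 and -0.01 for Wnt4.

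Follicle cell genes known as targets of GATA4 or FOXL2 had a lower mean for 8 of 14 measured genes, with a median of -0.17, for 12 with centring (median -0.27) and for 11 with quantile normalization (median -0.17). Star, Inha, Inhbb, Amhr2 and Fst were detected on every array. Inha, the inhibin alpha gene, differed by -1.42 (SE 1.82), with the metastatic tumour of C1M5 lowest at 10.24, and by 0.40 without it. Hsd3b1, a steroid enzyme gene, differed by -0.50 (SE 0.53), but stood at 5.69 in the primary tumour of C2M3 and at 3.85 to 4.02 in the other 5, and the difference without that tumour was 0.09. The RefSeq table held 15 promoter windows for 11 of these genes, and 4 windows (26.7%) held GATAA, against 22.6% of all windows. Mesenchyme genes tied to TCF21 and OSR1 had a lower mean for 10 of 17 measured genes, with a median of -0.04. The 3 with the largest differences each turned in sign with 1 array left out. Col1a1 differed by 0.59 (SE 1.24), by -0.44 without the primary tumour of C1M3 and by -0.24 without the metastatic tumour of C2M3. The matrix proteoglycan gene Lum differed by -0.43 (SE 1.81), by 0.98 without the primary tumour of C2M3 and by 0.12 without the metastatic tumour of C1M5. The homeobox gene Meox1 differed by -0.40 (SE 0.61), with 0.55 in C1M5, and by 0.24 without the primary tumour of C2M3.

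**Figure D4:**
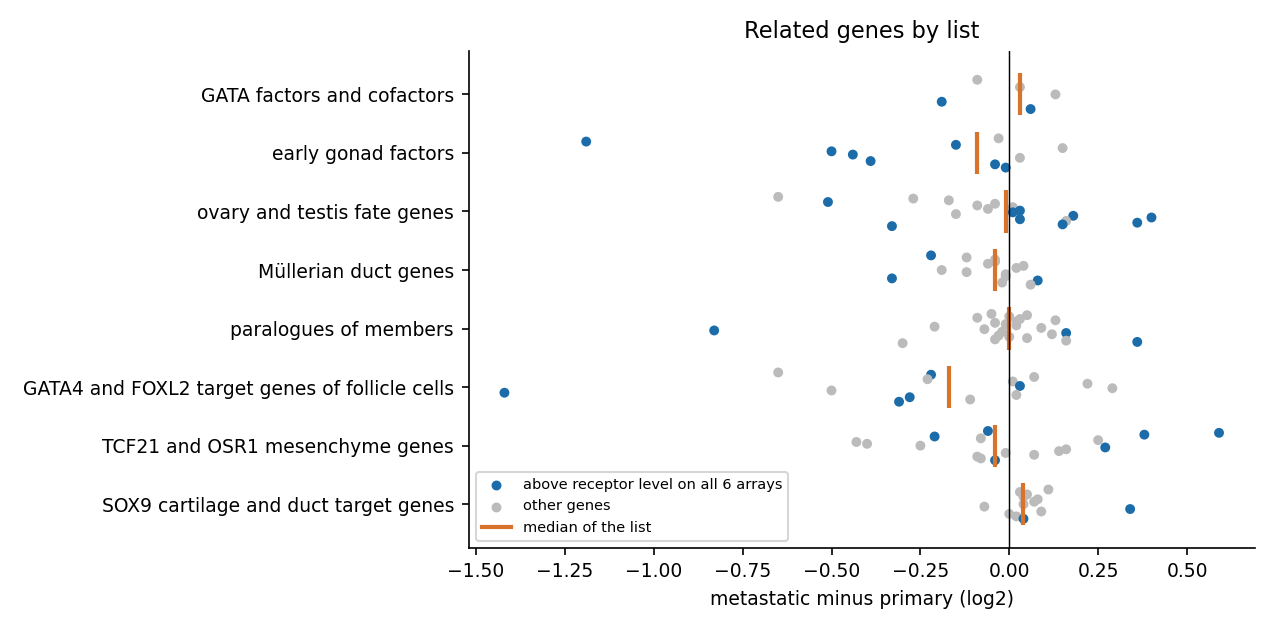
Metastatic minus primary log2 intensity of each measured gene of 8 lists (dots), blue where the gene lay above the receptor gene level on all 6 arrays, with the median of the list in orange. Cited2 (-1.19) and Inha (-1.42) lay farthest from 0, and the medians lay between -0.17 and 0.04; those of the GATA (0.03) and SOX9 (0.04) lists turned negative with centring and with quantile normalization.

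Genes with a profile over the 6 arrays most like a member were found by the root mean square difference of values centred on their own mean, among 2804 genes. The nearest to Sox9 were Hmgcs1, an enzyme gene of cholesterol synthesis, at 0.13, Bnip3l, a mitophagy receptor gene, at 0.14, and Gys1, which encodes glycogen synthase of muscle, at 0.14. Like Sox9, all 3 were highest in the primary tumour of C1M3 and lowest in the metastatic tumour of C2M3. The nearest to Gata4 were Abtb2 at 0.11, Knl1, a kinetochore gene, at 0.14 and Dusp16, a phosphatase gene, at 0.14. The nearest to Emx2 were Tle6 at 0.17, Vps37b at 0.18 and the potassium channel gene Kcnh2 at 0.19. These are descriptions over 6 arrays of 3 mice and carry no test.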

How the data were processed

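Total RNA of 6 tumours was hybridised to whole-transcriptome arrays, 1 array per tumour. The deposited values are log2 intensities per probe set, made by the authors with RMA and Transcriptome Analysis Console, per the submitters' processing notes; versions and genome build are not given in the sources used here. RMA corrects background, applies quantile normalization and summarises probes. Of 65956 gene-level probe sets, 30604 carried 1 symbol in the platform annotation, 2146 several and 33206 none; 827 symbols were updated by Entrez identifier through RefSeq (GRCm38.p6). The probe set with the highest mean was kept per gene, which gave 30142 genes.

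Tissue was taken from the tissue label and mouse from the donor label; the source name of the primary tumour of C2M3 reads C2M2, and the donor label and title were followed. The groups were tested in R 4.3.3 with limma 3.58.1 (tissue as the term, empirical Bayes, two-sided, Benjamini-Hochberg over all genes, threshold 0.05). Errors are SD over 3 mice or moderated SE. The code was tested on simulated data. The pairing by mouse comes from the donor label; deviations of the tumours of a mouse correlated across genes with r = -0.05, 0.35 and 0.07 in C1M3, C1M5 and C2M3. Alternatives were the mouse as a block, each array or mouse left out, centring, quantile normalization, array weights, a variance trend, a filter on dim genes and the mean over probe sets. Leaving out single arrays for the list genes was added after seeing the data.

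The members, the gene lists (8 of related genes, 14 of cell markers) and the naming rules were chosen with earlier results of these data known. All members were named. Of each list, up to 3 genes with the largest difference follow the rule, and other list genes were named after their values were seen. Profile neighbours (3 per member) were sought for members with a range of at least 1 and detection on at least 3 arrays, among genes with such a range and a mean above the median.

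Marker lists not described above had these means over the 6 arrays: smooth muscle 6.03 to 7.96, endothelium 6.16 to 7.78, T cells 4.55 to 5.22, granulosa, theca and luteal cells 6.55 to 7.40, liver and pancreas 4.35 to 4.97, and spleen and gut wall mesoderm 4.35 to 4.43.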

Additional observations from a re-analysis of the deposited data

How the results depend on the processing

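None of the 16 alternatives called a gene or a member. With limma, the smallest adjusted p of a member over them was 0.321, for Emx2 without both tumours of C1M3. With the mouse as a replicate block 0 genes and 0 members passed, and the block changed no call. Gata4, Gata6, Sox9, Emx2, Pax8 and Pax2 had a lower metastatic mean under every alternative that held them; the filter on dim genes left out the 7 members other than Gata4, Gata6 and Sox9. With single arrays left out, the difference ran from -1.06 to -0.49 for Sox9, from -1.26 to -0.33 for Emx2, from -0.66 to -0.10 for Gata4 and from -0.31 to -0.20 for Gata6.

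Of the 7 dimmer members, 4 changed sign under some alternative. The other dim members, Emx2, Pax8 and Pax2, did not, though Pax8 and Pax2 lay below the receptor gene level on every array. Without mouse C1M3 the difference was -0.48 for Tcf21 and 0.048 for Lhx9, without mouse C1M5 it was 0.001 for Foxl2, and without mouse C2M3 it was -0.01 for Osr1. With array weights it was -0.14 for Tcf21, 0.014 for Lhx9 and -0.066 for Osr1. Quantile normalization gave 0.018 for Foxl2 and -0.028 for Osr1, and centring gave -0.066 for Osr1. With single arrays left out, it ran from -0.33 to 0.64 for Tcf21, from -0.14 to 0.17 for Osr1 and from -0.052 to 0.045 for Lhx9. The cause was not tested. Centring moved the median of all genes from 0.02 to -0.09 and the count of Müllerian duct genes with a lower mean from 11 to 15 of 15. The share of all genes with a lower mean moved from 43.9% to 69.6%. Signal near the receptor gene level limits what can be read for the 7 dimmer members.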

Other observations

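Sry, the Y-linked testis factor upstream of Sox9, had a probe set at 8.09 to 8.62 in all 6 tumours, above the receptor gene level of each array. Other Y-linked genes, looked up after that value was seen, lay at the floor: Uty at 4.10 and Eif2s3y at 4.42 on every array, and Kdm5d at 4.01 to 4.03. Pax3, a paralogue of Pax8 and Pax2 known for neural crest and muscle, lay at 7.71 to 8.21 in all tumours. A mouse aquaporin gene of the kidney collecting duct, Aqp2, had 13.97 primary against 11.34 metastatic in C1M3, 9.70 against 7.68 in C1M5 and 9.70 against 8.80 in C2M3, while 9 of the 11 measured kidney and nephric duct genes lay above the receptor gene level on no array.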
